A study of Mus musculus with 4 samples.

Results

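The comparison set 1196 single cells of the primary site side by side, 954 from an early lesion library and 242 from a primary tumor library, out of 1905 called cells in the 4 libraries of the series. Members were the barcodes of these 2 libraries with 1000 to 10000 UMIs (unique molecular identifiers, each read as 1 RNA molecule), at least 250 detected genes and under 1% of UMIs from mitochondrial genes. Each cell was then drawn down at random to 1000 UMIs, so that every cell entered with the same depth and a single deep cell could not carry a ratio. All mice were MMTV-neu (MMTV-HER2/Neu) on the FvB background, in which the MMTV promoter drives the neu (HER2) oncogene in mammary epithelium. The early lesion came from mammary glands at 14 to 18 weeks of age without a palpable tumor, and the tumor from mice over 20 weeks of age. In both, CD45- HER2+ cells were sorted and captured with 10x Chromium 3' v2 chemistry. The other 2 libraries, from the lungs, were not compared. How many mice stood behind a library was not given in the sources used here. With 1 library per side there was no test: the exact 95% intervals express counting error alone and leave out any variation from mouse to mouse.

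HER2 is a receptor tyrosine kinase of the ERBB family that signals through RAS and ERK and through PI3K, and ETS transcription factors and ERK phosphatases are among the genes that ERK signalling switches on. Alveolar cells of the mammary gland make milk proteins under prolactin, JAK2 and STAT5, with ELF5 as a lineage factor, and SOCS2 is a feedback inhibitor of that pathway. Milk-making cells also synthesise fatty acids and lipid droplets, and proliferating or oxygen-poor cells commonly raise glycolysis.

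The early lesion library held 6366768 UMIs and the tumor library 3403140. The matched cells were 87.9% of the 1085 called lesion cells and 56.9% of the 425 called tumor cells. Their depth before thinning was close, with a median of 2943.5 UMIs (1000 to 9836) in the lesion and 2434 (1015 to 8991) in the tumor. The mitochondrial share was not equal even inside the window: the median was 0.112% in the lesion and 0.363% in the tumor. Outside the window lay 21 lesion and 18 tumor cells above 10000 UMIs, and the 18 tumor cells held 54.7% of the UMIs of all called tumor cells. Of these 18 cells 17 had a mitochondrial share of 1% or more, with a median of 4.63%, against none of the 21 lesion cells. A further 66 lesion and 52 tumor cells had the right depth but a mitochondrial share of 1% to 20%. No called barcode was shared between any pair of libraries. Scrublet marked 8 matched cells in each library as doublets, and these were kept.

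**Figure D1:**
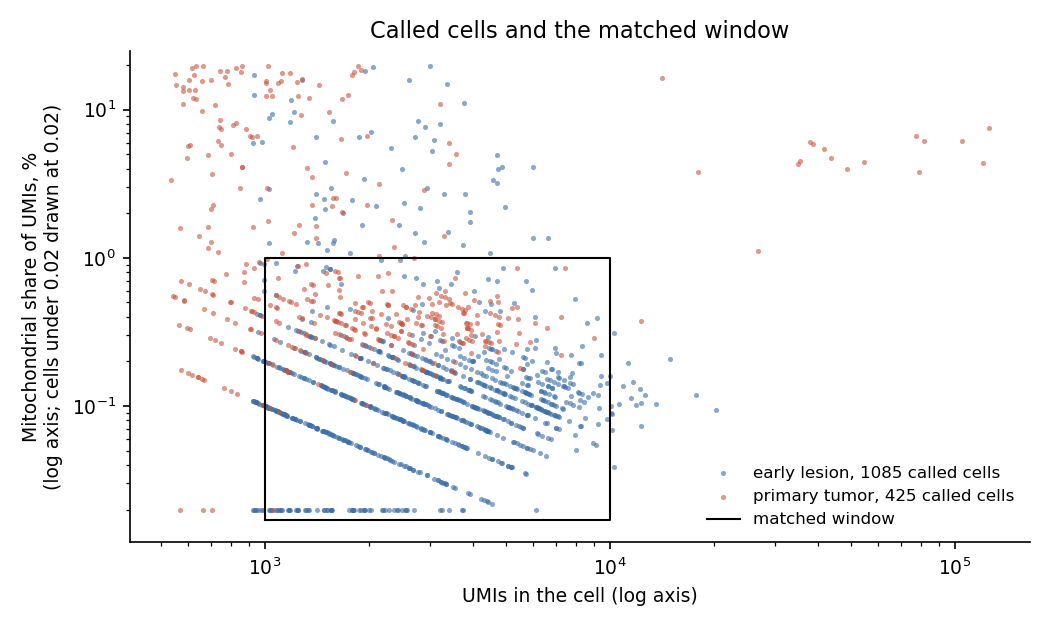
Each point is a called cell, with its UMIs on the x axis and the mitochondrial share of its UMIs in percent on the y axis, both on log axes; blue is the early lesion and red the primary tumor. The box is the matched window, which holds 954 lesion and 242 tumor cells; inside it tumor cells sit higher (median 0.363% against 0.112%), and the 18 tumor cells above 10000 UMIs lie outside it.

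The sorted population carried an epithelial profile in both libraries, but more thinly in the matched tumor cells. Of 10 luminal epithelial markers, all were found in the lesion and 9 in the tumor, where Krt19 had no UMI. The marker sum was 6.13 UMIs per 1000 in the lesion and 2.25 in the tumor, and at least 3 marker UMIs were found in 98.2% of lesion and 71.1% of tumor cells before thinning. Outside the window the sums were closer. They were 6.19 and 5.61 in lesion and tumor cells above 10000 UMIs, and 5.23 and 4.88 at 1% to 20% mitochondrial RNA. By the rule for calls given below, 6 of the 10 markers were lower in matched tumor cells (60%, against 9.41% of all genes) and 0 higher. Their median log2 ratio was -1.60. With all called cells summed, 2 of the 10 markers were lower (against 6.68% of all genes) and 0 higher (against 11.5%), with a median of -0.38. Ptprc, which encodes CD45, had no UMI in any matched cell after thinning, which allows up to 0.314% of lesion and 1.24% of tumor cells with a captured UMI and sets no limit on cells that express it. Before thinning Ptprc was captured in the matched lesion cells and not in the matched tumor cells. Erbb2 was found in 5 of 954 lesion cells (0.524%, interval 0.170% to 1.22%) and in 0 of 242 tumor cells, which allows up to 1.24% with a UMI. The Erbb2 counts do not separate the transgene from the mouse gene, so they do not check the sort. Markers of basal and myoepithelial cells summed to 0.507 UMIs per 1000 in the lesion, where 11.7% of cells held 3 or more before thinning, and to 0.00413 in the tumor. None of 7 macrophage and 5 lymphocyte markers had a UMI in the tumor cells. After thinning the lesion had a UMI of 3 of the macrophage and 1 of the lymphocyte markers, at summed levels of 0.00734 and 0.00105 per 1000. Before thinning it had a UMI of 5 of the macrophage markers, and 2 lesion cells held 3 or more UMIs of them.

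Across the genome, 5061 of 27998 genes reached 20 thinned UMIs over both libraries and were measured. Calls needed a difference of at least 2-fold in the mean per cell and an interval without a ratio of 1. By this rule 656 genes (13.0%) were higher in the tumor and 476 (9.41%) lower, and the median log2 ratio of tumor over lesion was 0.19. The balance of the directions depended on scaling. With edgeR's TMM factors on the unthinned counts, 661 were higher and 1397 lower and the median was -0.15, against 1098 and 956 with a median of 0.14 when the same counts were scaled to their total. With milk protein genes taken out before thinning, 523 were higher and 612 lower, and the median was 0.06. Single calls also moved with the random draw: under another seed 449 of the 656 higher and 351 of the 476 lower calls were made again, and none was made in the opposite direction. Of the 476 lower genes, 90 had no UMI in the tumor cells, and 7 of the higher genes had none in the lesion cells. These 2 counts cannot be compared. A gene absent from the tumor needed 20 UMIs over 954 lesion cells. One absent from the lesion needed 20 over 242 tumor cells, a higher mean per cell. For the same reason thinly captured genes were measured more easily when high in the lesion. This can tilt the counts and medians of thinly captured lists toward lower genes.

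**Figure D2:**
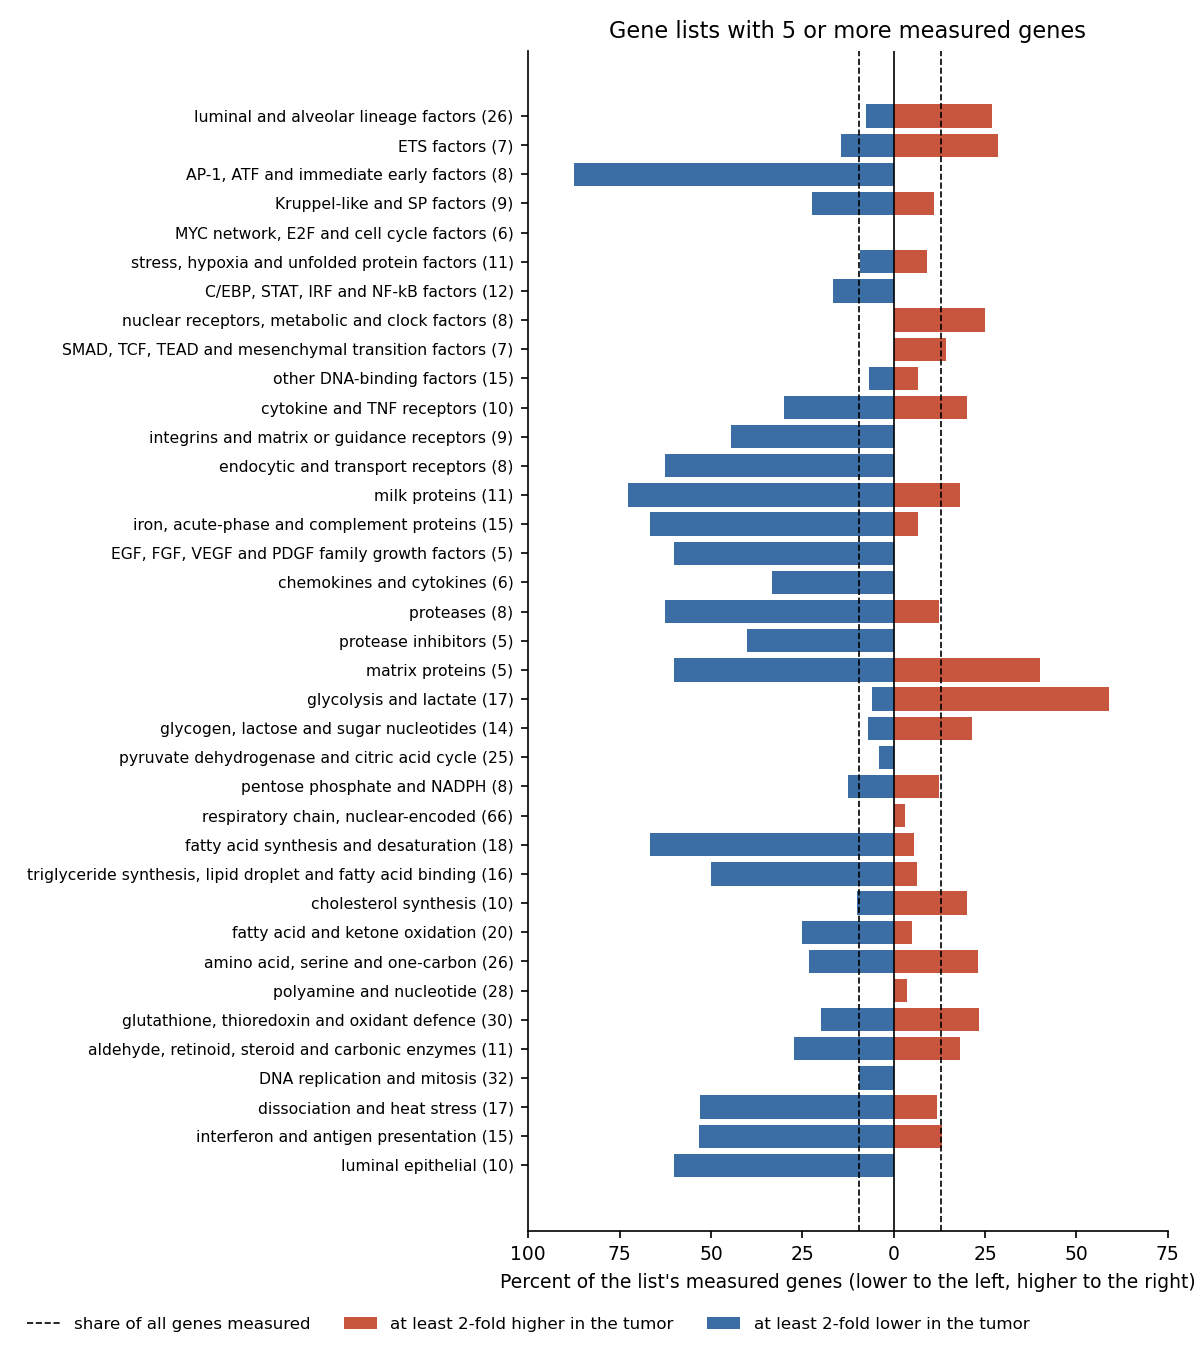
For lists with 5 or more measured genes, bars give the percent of those genes called at least 2-fold higher (red, to the right) or lower (blue, to the left) in the tumor, with the number measured in parentheses; dashed lines mark the shares over all measured genes, 13.0% higher and 9.41% lower. Among these lists glycolysis has the longest bar to the right (58.8%) and the AP-1, ATF and immediate early factors the longest to the left (87.5%).

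Transcription factors as a class were divided. Of 109 measured factors (of 264 listed) 15 were higher (13.8%, against 13.0% of all genes) and 16 lower (14.7%, against 9.41%), with a median log2 ratio of 0.14. Under TMM scaling the class median was -0.19. Within the class the families differed in direction.

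The ETS factors Etv1 and Etv5, targets of ERK signalling, were among the highest genes of the whole table. Etv1 (chr12:38779380-38870484, GENCODE M21 on mm10, as for all gene positions here) had no UMI in 954 lesion cells and 25 UMIs in 23 of 242 tumor cells, at least 32.9-fold higher. Etv5 (chr16:22381309-22439719) was found in 0.210% of lesion and 16.1% of tumor cells, a ratio of 63.9 from 2 and 40 UMIs with a log2 interval of 4.35 to 9.40. The other 5 measured members of the ETS list were not higher. Elf1 was lower, with a log2 ratio of -1.59, and Ets2, Gabpa, Etv6 and Elf2 passed in neither direction. The list does not hold every ETS factor: Elf5 was counted among the lineage factors below and was lower. Dusp6 (chr10:99263231-99267489), the phosphatase that switches off ERK, was found in 0.629% of lesion (0.231% to 1.36%) and 27.7% of tumor cells (22.1% to 33.8%), a 54.9-fold higher mean.

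Immediate early factors were lower. Of 8 measured members of the AP-1, ATF and immediate early list, 7 were lower (87.5%, against 9.41% of all genes) and none higher. The median was -3.12 (-2.37 with genes at 0 set to their bound). The list summed to a mean of 2.63 UMIs per 1000 in the lesion and 0.537 in the tumor, and 65.7% of tumor cells against 29.8% of lesion cells had none. Fos (chr12:85473890-85477273), an AP-1 subunit, was found in 43.4% of lesion and 2.89% of tumor cells (interval 1.17% to 5.87%), and its mean was 24.7-fold lower in the tumor. Junb, its partner, went from 0.354 to 0.0413 UMIs per cell, a log2 ratio of -3.03 (-4.17 to -2.20). Atf3 had 74 UMIs in the lesion and none in the tumor. A list of genes known to respond to tissue dissociation and heat had 9 of 17 measured members lower and 2 higher. These were 52.9% and 11.8%, against 9.41% and 13.0% of all genes. The sum of that list was 8.99 per 1000 in the lesion and 4.81 in the tumor. The part of tissue handling in the immediate early values was not tested.

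Lineage factors of luminal and alveolar cells included 7 higher and 2 lower genes among 26 measured (26.9% and 7.69%, against 13.0% and 9.41% of all genes), with a median of 0.61. Hey1 (chr3:8663359-8667256), a Notch target, was found in 1.15% of lesion and 23.1% of tumor cells, a log2 ratio of 4.26 (3.43 to 5.28). Nfix, a nuclear factor I protein, was found in 7.44% of lesion and 19.8% of tumor cells (log2 ratio 1.76, 1.25 to 2.25). Tfap2c, an AP-2 factor of luminal cells, had 8.81% and 21.1%. Sox10, listed here both as a lineage factor and as a Schwann cell marker, had 5.66% and 16.9%, and it supplied the Schwann list's only measured gene. Elf5 (chr2:103411688-103450989), the alveolar factor, was lower, at 56.8% of lesion (53.6% to 60.0%) and 26.0% of tumor cells (20.6% to 32.0%), and Stat5a was lower at 8.70% and 3.72%. Elf5 was lower in tumor cells outside the window as well, at 9.62% of the 52 with more mitochondrial RNA.

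No member passed in either direction among the 6 measured factors of the MYC, E2F and cell cycle list. Myc itself was found in 5.87% of lesion and 4.55% of tumor cells, and Trp53 in 18.4% and 9.50%. Among 11 stress, hypoxia and unfolded protein factors, Bhlhe40, a hypoxia-responsive repressor, was higher (1.89% and 6.61% of cells) and Nfe2l2, the oxidant sensor, lower (log2 ratio -2.85). Hlf and Nr1h2 were the 2 higher members among 8 nuclear receptor, metabolic and clock factors.

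Receptors were thinly captured: 32 of 222 listed genes reached the minimum. Of these 3 were higher (9.38%, against 13.0% of all genes) and 12 lower (37.5%, against 9.41%), and the median was -1.05. The minimum was reached more easily by genes high in the larger lesion library, which can tilt these values toward lower. The 3 higher genes were a small set. Il20rb, a subunit of receptors for interleukins of the IL-10 family, had no UMI in the lesion cells and was found in 8.68% of tumor cells, at least 28.9-fold higher. Ramp1, a partner of calcitonin-family receptors, was found in 2.10% and 9.09%, and Tnfrsf12a, the TWEAK receptor, had a log2 ratio of 1.48. Among the lower genes were Cd47, the signal against phagocytosis (14.3% of lesion and 0.826% of tumor cells), and the tetraspanins Cd9 (45.3% and 19.4%) and Cd81 (55.1% and 26.9%). Pigr, the transporter of IgA into milk, had 88 UMIs in the lesion and 1 in the tumor, a log2 ratio of -3.90 (-9.80 to -1.96). Folr1, a folate receptor, was found in 19.9% and 7.02%. Endocytic and transport receptors had 5 of 8 measured members lower (62.5%) and none higher, and integrins with matrix and guidance receptors 4 of 9 (44.4%). Only 1 of 35 receptor tyrosine kinases was measured, so that family could not be described at this depth.

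The receptor values did not extend to the tumor cells outside the window. Receptor genes summed to 3.79 UMIs per 1000 in matched lesion cells and 1.96 in matched tumor cells. The same sum was 9.17 in the 18 tumor cells above 10000 UMIs and 9.64 in the 52 tumor cells with 1% to 20% mitochondrial RNA, against 3.81 and 5.42 in the lesion cells of the same kinds. With all called cells summed, 10 of the 32 genes were higher and 3 lower, against 11.5% and 6.68% of all genes. Cd9 was found in 63.5% of the 52 tumor cells (49.0% to 76.4%) and in 19.4% of the matched ones.

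Of the 4 classes, secreted proteins had the largest share of lower genes (60.0%, against 9.41% of all genes). Of 65 measured genes (of 329 listed) 7 were higher (10.8%, against 13.0%) and 39 lower, with a median of -2.04. As for receptors, the minimum favoured genes high in the lesion, which can tilt these values toward lower. The class summed to 172 UMIs per 1000 in the lesion and 70.6 in the tumor, and most of this was milk protein RNA.

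Milk proteins were 8 of 11 lower and 2 higher (72.7% and 18.2%, against 9.41% and 13.0% of all genes). In the lesion they made up a median of 149 of every 1000 UMIs of a cell (3 to 536), and in the tumor 43 (0 to 233), so the list sums of both libraries overlapped. The mean sum was 151 in the lesion and 58.0 in the tumor. Wfdc18 alone, a higher gene described below, supplied 11.5 and 39.4 of these. Most milk protein UMIs of the tumor cells were thus of that gene. Csn2 (chr5:87692624-87699630), beta-casein, averaged 50.6 UMIs per lesion cell and 0.0826 per tumor cell. It was found in 99.8% of lesion and 4.96% of tumor cells, and 1 tumor cell held 6 of the 20 UMIs. In near-empty barcodes of 1 to 50 UMIs, which carry free RNA, Csn2 stood at 101 CPM in the tumor, and the part of free RNA in its share of 4.96% was not tested. Csn1s2a (chr5:87774567-87788797), another casein, averaged 53.3 and 3.60 UMIs, and was found in 99.7% and 47.9% of cells. Its tumor UMIs were uneven, with 75.2% of them in the 10% of cells that held most. Glycam1 (chr15:103562759-103565081), a mucin of the milk fat globule, had 4458 UMIs in the lesion and none in the tumor, at least 377-fold lower, and Wap was at least 32.1-fold lower. Against these, Wfdc18 (chr11:83709015-83711348), a whey protein relative, averaged 11.5 UMIs per lesion and 39.4 per tumor cell, and was found in 97.5% and 99.2% of cells. Lalba (chr15:98480400-98482721), alpha-lactalbumin of lactose synthesis, was found in 33.1% of lesion and 75.6% of tumor cells, a 3.28-fold higher mean. Csn3, kappa-casein, passed in neither direction, at 95.6% and 88.8%. The milk genes thus differed in both directions.

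Promoters of a lower casein, Csn1s1 (17.0 and 2.67 UMIs per cell), and of the higher Lalba are shown because STAT5 is the known activator of this family. RefSeq windows of the 250 bases before the RefSeq gene start on GRCm38.p6 were found for 9 of the 11 measured milk genes. RefSeq and GENCODE starts differ for some genes, so a window can reach into a GENCODE gene, as those of Csn2 and Aldoc do, and only bases outside the GENCODE gene are printed. Capitals mark TTCNNNGAA, the core of a STAT site, which reads the same on both strands and overlaps no other motif searched here. It was present in 3 of the 9 windows, in 42.9% of those of lower genes (3 of 7) and in neither higher gene, against 7.18% of all 27025 windows. A match is a description of letters only. Csn1s1 lies on the plus strand (chr5:87665958-87666207) and Lalba on the minus strand (chr15:98482722-98482933).
Csn1s1: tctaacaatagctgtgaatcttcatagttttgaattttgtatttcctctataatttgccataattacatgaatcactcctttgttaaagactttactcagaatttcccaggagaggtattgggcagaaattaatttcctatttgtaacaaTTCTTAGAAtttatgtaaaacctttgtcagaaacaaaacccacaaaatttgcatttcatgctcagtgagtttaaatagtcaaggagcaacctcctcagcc
Lalba: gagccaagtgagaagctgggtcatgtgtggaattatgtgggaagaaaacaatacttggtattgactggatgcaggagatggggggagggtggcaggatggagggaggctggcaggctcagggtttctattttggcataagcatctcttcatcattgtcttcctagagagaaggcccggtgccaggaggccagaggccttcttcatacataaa

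Secreted proteins other than milk proteins were lower too: 31 of 54 measured genes, with 5 higher and a median of -1.66. These were 57.4% and 9.26%, against 9.41% and 13.0% of all genes. Of 15 iron, acute-phase and complement proteins, 10 were lower and 1 higher (66.7% and 6.67%). Spp1 (chr5:104435118-104441050), osteopontin, was found in 53.4% of lesion cells but not in any of 242 tumor cells, at least 314-fold lower. Clu, clusterin, was found in 61.4% and 4.13%. C3, the central complement component, had 146 UMIs in the lesion and none in the tumor. Lpl, lipoprotein lipase, had 137 and 0, and Angptl4, its inhibitor, 112 and 0. Rspo1, a Wnt agonist, was found in 18.0% of lesion cells and had no UMI in the tumor. Higher genes were Apoc1, an apolipoprotein (17.9% and 38.0%), the carbonic anhydrase Car6 (log2 ratio 1.34), and the matrix genes Col9a1 (4.51% and 20.7%) and Npnt, nephronectin (0.524% and 6.61%). The fifth was Npy, neuropeptide Y (chr6:49822710-49829507), with no UMI in the lesion and 35 in 17 tumor cells, 7 of them in 1 cell. Lcn2, lipocalin, did not reach 2-fold, at 43.5% and 50.8% of cells.

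The summed level of these genes was lower in the window and not in other tumor cells. Secreted proteins without milk summed to 20.7 UMIs per 1000 in matched lesion cells, 12.6 in matched tumor cells, 47.2 in the 18 deep tumor cells and 55.4 in the 52 tumor cells with more mitochondrial RNA. In the lesion the sums for cells outside the window were 20.8 and 26.1. With all called cells summed, which include the matched ones, 21 of the 54 genes were lower and 11 higher, against 6.68% and 11.5% of all genes. The median was -0.36. Milk proteins were lower in every set, at 71.7 and 113 UMIs per 1000 in tumor and lesion cells with 1% to 20% mitochondrial RNA and at 78.2 and 181 in the deep ones. Igfbp5, an IGF-binding protein, was found in 7.85% of matched and 59.6% of those 52 tumor cells. Its log2 ratio of -1.54 became 0.42 when the mitochondrial limit was 20%. Spp1 and Krt19, by contrast, had no thinned UMI in either set of tumor cells outside the window.

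Among 421 listed metabolic genes 289 were measured. Of these 37 were higher and 45 lower (12.8% and 15.6%, against 13.0% and 9.41% of all genes). The median was 0.14 (-0.13 under TMM). Pathways within the class differed in direction.

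Glycolysis had the largest share of higher genes among metabolic lists. Of 17 measured genes 10 were higher (58.8%, against 13.0% of all genes) and 1 lower, with a median of 1.04. The list summed to a mean of 3.84 UMIs per 1000 in the lesion and 12.4 in the tumor. Per cell the lesion median was 3 (0 to 13) and the tumor median 11 (0 to 38). Aldoc (chr11:78322968-78327781), aldolase C, was found in 21.1% of lesion (18.5% to 23.8%) and 83.5% of tumor cells (78.2% to 87.9%), an 11.8-fold higher mean. Aldoa (chr7:126795234-126800751), the muscle-type aldolase, averaged 0.404 and 2.12 UMIs per cell. Hk1, hexokinase of the first step, was found in 3.46% and 16.5% of cells. Pgk1, Pkm, Ldhb, Tpi1, Eno1, Pgam1 and Ldha were the other higher genes, with log2 ratios of 2.23 for Pgk1 down to 1.02 for Ldha. Slc16a1, a lactate transporter, was the 1 lower gene, at 2.73% and 0% of cells, and Slc2a1, the glucose transporter, passed in neither direction. These differences were present outside the window too. The glycolysis sum was 9.33 in the 18 deep tumor cells and 11.1 in the 52 with more mitochondrial RNA, against 3.95 and 3.56 in the matching lesion cells. Under TMM scaling the median was 0.78, with 7 higher and 4 lower of 23, against 661 higher and 1397 lower of all 8222 genes measured in that setting.

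The promoter of Pgk1, phosphoglycerate kinase, is shown because glycolytic genes are known targets of hypoxia-inducible factors. Capitals mark ACGTG or GCGTG on either strand (CACGT or CACGC on the printed one), the core that these factors bind. The core was found in 12 of the 17 windows of measured glycolysis genes (70.6%), against 38.6% of all windows of this length. It was in 6 of the 10 windows of higher genes (60%) and in that of the 1 lower gene. The higher genes thus did not hold it more often than the list as a whole, and a match describes letters only. Pgk1 lies on the plus strand, with its window at chrX:106186850-106187099.
Pgk1: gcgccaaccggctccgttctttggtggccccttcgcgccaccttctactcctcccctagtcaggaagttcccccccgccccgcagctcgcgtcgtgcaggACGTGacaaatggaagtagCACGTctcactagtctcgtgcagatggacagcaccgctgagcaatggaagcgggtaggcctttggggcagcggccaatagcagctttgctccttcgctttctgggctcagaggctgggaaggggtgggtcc

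**Figure D3:**
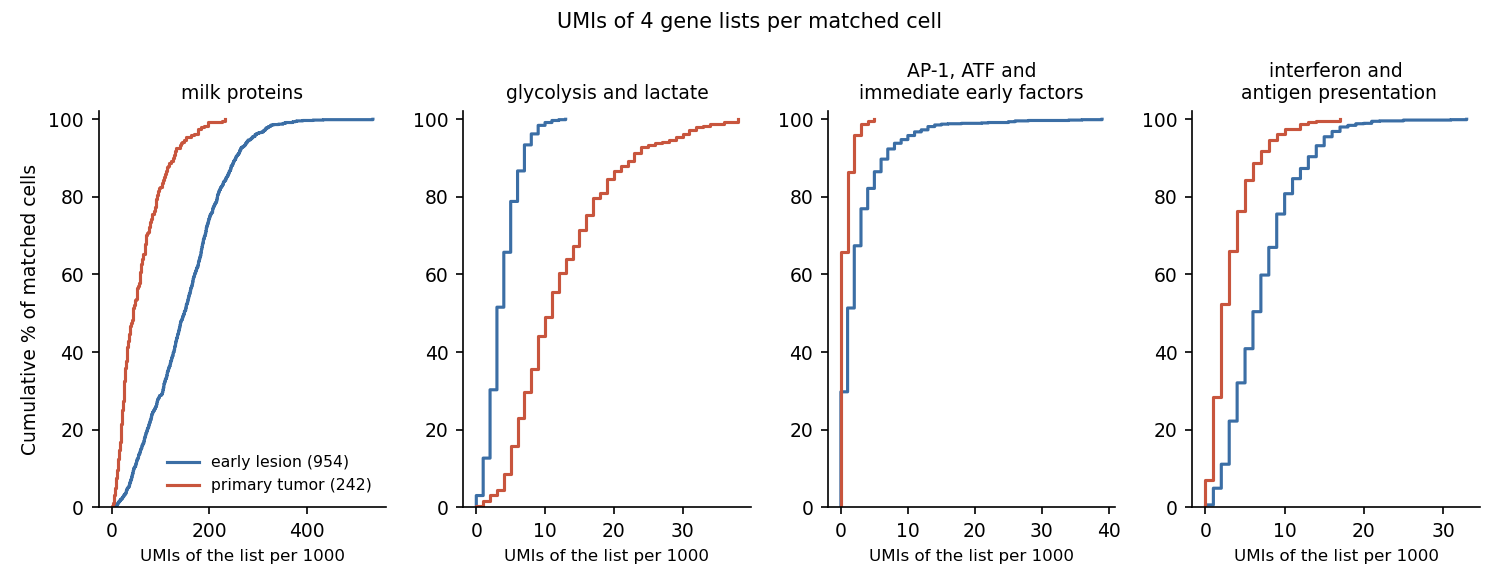
Each curve gives the cumulative percent of matched cells (y axis) against the UMIs of a gene list per 1000 UMIs of the cell (x axis), blue for 954 early lesion and red for 242 primary tumor cells. The tumor curve lies to the right for glycolysis (median 11 against 3) and to the left for milk proteins (43 against 149), for AP-1, ATF and immediate early factors, and for interferon and antigen presentation. Wfdc18 supplies most of the milk protein UMIs of the tumor cells.

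Genes of fatty acid synthesis were mostly lower. The fatty acid synthesis and desaturation list had 12 of 18 measured genes lower and 1 higher (66.7% and 5.56%, against 9.41% and 13.0% of all genes), with a median of -1.93, and its sum was 3.73 per 1000 in the lesion and 1.38 in the tumor. Acot1, an acyl-CoA thioesterase, was found in 62.6% of lesion and 6.61% of tumor cells. Thrsp, a lipogenic regulator, was found in 62.5% and 18.2%. Acsl1, which activates long-chain fatty acids, had 121 and 1 UMIs, a log2 ratio of -4.36 (-10.26 to -2.43). Acsl4 (chrX:142317993-142390535), which prefers polyunsaturated fatty acids, was the higher member, at 5.97% and 34.3% of cells. Scd1, the desaturase, passed in neither direction. Triglyceride, lipid droplet and fatty acid binding genes were 8 of 16 lower and 1 higher, a larger share lower than over all genes, but their sum did not follow, at 7.20 UMIs per 1000 in the lesion and 7.82 in the tumor. The lower genes were led by Fabp3 (180 UMIs and 0, at least 15.2-fold lower) and Btn1a1, butyrophilin of the milk fat globule (15.5% and 1.65% of cells). Plin2, the droplet coat protein, was found in 82.2% and 44.6%. Fatty acid and ketone oxidation had 5 of 20 lower and 1 higher, a larger share lower than over all genes. In the all-called sums the fatty acid synthesis list had 8 lower, 2 higher and a median of -0.64, so its size depended on the cells taken.

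Genes of mitochondrial respiration had few calls. Of 66 nuclear-encoded respiratory chain genes 2 were higher and none lower (3.03%, against 13.0% of all genes higher), with a median of 0.40 (0.17 under TMM). Their sum was 33.3 UMIs per 1000 in matched lesion and 43.8 in matched tumor cells, but 30.7 and 30.3 in the cells with 1% to 20% mitochondrial RNA. Of 25 genes of pyruvate dehydrogenase and the citric acid cycle, none was higher and 1 lower, with a median of -0.08. The mitochondrially encoded RNAs were 8 of 8 higher, which bears on the measure that chose the cells and is given as a description only. Cytosolic ribosomal protein genes were 86 measured with none called, at 255 and 261 UMIs per 1000.

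Of 26 measured amino acid, serine and one-carbon genes 6 were higher and 6 lower (23.1% each, against 13.0% and 9.41% of all genes), and enzymes of arginine metabolism were among the higher ones. Arg1 (chr10:24915221-24927484), arginase, had 5 UMIs in the lesion and 79 in the tumor, and was found in 0.419% and 25.2% of cells. Ass1, argininosuccinate synthase, was found in 2.62% and 14.9%, and Mthfd2l, a mitochondrial folate enzyme, in 2.41% and 7.44%. Phgdh and Psat1, the first enzymes of serine synthesis, were lower at log2 ratios of -2.12 and -2.27, as was Glul, glutamine synthetase, at -2.06. Of 30 glutathione, thioredoxin and oxidant defence genes 7 were higher and 6 lower (23.3% and 20.0%, against the same 13.0% and 9.41%). The higher ones included the glutathione transferases Gstm1 (1.78% and 10.3% of cells), Gstm5 (4.40% and 14.9%) and Mgst3 (2.94% and 12.8%). Mgst1, a microsomal relative, was lower at 86.7% and 30.6%, and the metallothionein Mt2 at 38.3% and 5.79%. Among polyamine and nucleotide genes Oaz2, an antizyme that restrains polyamine synthesis, was the 1 higher gene of 28.

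Outside the 4 classes, feedback regulators of receptor signalling were among the 15 highest genes. Socs2 (chr10:95385362-95417180) was detected in 14 of 954 cells of the lesion against 135 of 242 in the tumor, 1.47% (0.805% to 2.45%) and 55.8% (49.3% to 62.1%). Its mean was 60.3-fold higher, and the top tumor cell held 6 of 252 UMIs. Nf1 (chr11:79339693-79581612), neurofibromin, which switches off RAS, was found in 0.419% and 17.4% of cells. Shf, an SH2-domain adaptor, was found in 0.734% and 33.5%. Tesc (chr5:118027743-118061878), a calcium-binding protein, had no UMI in the lesion and was found in 23.6% of tumor cells, at least 95.9-fold higher. Efhd1, a calcium-binding protein of mitochondria, and Faim2, an inhibitor of Fas-induced death, had no lesion UMI and were found in 14.0% and 12.0% of tumor cells. Aqp5, a water channel of glandular epithelium, was found in 2.31% and 43.0% of matched cells, and in 75.0% of the 52 tumor cells with more mitochondrial RNA. Scgb2b27, a secretoglobin with close relatives among which counting may be divided, had 1 UMI in the lesion and 37 in 23 tumor cells.

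The lowest genes outside the classes included keratins. Krt19 (chr11:100140810-100148665), a luminal keratin, was found in 60.1% of lesion cells but not in any of 242 tumor cells, at least 84.3-fold lower. Krt14 (chr11:100203162-100207548), a basal keratin, was found in 22.4% and 0%, at least 22.5-fold lower. Gjb2, a gap junction connexin, was found in 25.1% of lesion cells and 1 tumor cell. Gadd45g, a stress-response gene, had 238 UMIs and 0. By contrast Krt8 and Krt18, the general luminal keratins chosen here after their values were seen, passed in neither direction, with Krt8 at 53.2% and 34.7% of cells and Krt18 at 63.4% and 42.6%.

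Antigen presentation genes were lower in the matched tumor cells. Of 15 measured interferon and antigen presentation genes 8 were lower and 2 higher (53.3% and 13.3%, against 9.41% and 13.0% of all genes). Their median log2 ratio was -1.36. H2-K1 (chr17:33996017-34000347), a class I heavy chain, was found in 63.4% of lesion and 14.5% of tumor cells, and H2-D1, another, in 73.2% and 28.5%. The class I genes are near-identical in part, so counts may be divided among them. Tap2, a peptide transporter, was found in 7.55% and 0.826%. Higher were the interferon-induced Ifi27 (13.8% and 47.9%) and Isg15 (log2 ratio 2.85). The list summed to 7.16 UMIs per 1000 in matched lesion and 3.22 in matched tumor cells. Outside the window the tumor was not lower. There the sums were 6.76 and 12.4 in lesion and tumor cells above 10000 UMIs, and 7.79 and 9.98 at 1% to 20% mitochondrial RNA. With all called cells summed, 1 of the 15 genes was lower and 2 higher, against 6.68% and 11.5% of all genes. The median was then -0.01. DNA replication and mitosis genes were 3 of 32 lower (9.38%, the share over all genes being 9.41%) and none higher. In the sums of all called cells 11 of the 32 were lower, against 6.68% of all genes, with a median of -0.84. The list's mean sum was 5.16 per 1000 in the lesion and 4.09 in the tumor. Per cell the lesion median was 3 (0 to 29) and the tumor median 1 (0 to 57). Ccnb1, a mitotic cyclin, was found in 7.86% and 3.72% of cells, and 15.4% of lesion and 35.1% of tumor cells had no UMI of the list.

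Matched cells and all called cells differed in many calls. Of the 656 higher genes 332 were also called higher in the sums of all called cells, and of the 476 lower genes 218 were also called lower. A further 12 genes were lower in matched cells and higher in the sums, and 105 of the 476 had a ratio above 1 there. Only 3 of the 656 went the opposite way. The 8 genes named for the widest gap were Aplp2, Ctage5, Cyba, Etv1, F11r, Malat1, Pdia4 and Rpn2. Of these Rpn2 and Pdia4 encode proteins of the endoplasmic reticulum, Ctage5 a protein of its exit sites, and Aplp2, F11r and Cyba membrane proteins. Rpn2 was found in 15.4% of lesion and 1.65% of matched tumor cells, with a log2 ratio of -3.20, against -0.03 in the sums. Malat1, a nuclear RNA, was found in 10.5% of matched lesion and 8.26% of matched tumor cells, and in 94.4% of the 18 deep tumor cells. In the sums of all called cells its log2 ratio was 2.40, and in matched cells -1.06 (-1.51 to -0.65).

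**Figure D4:**
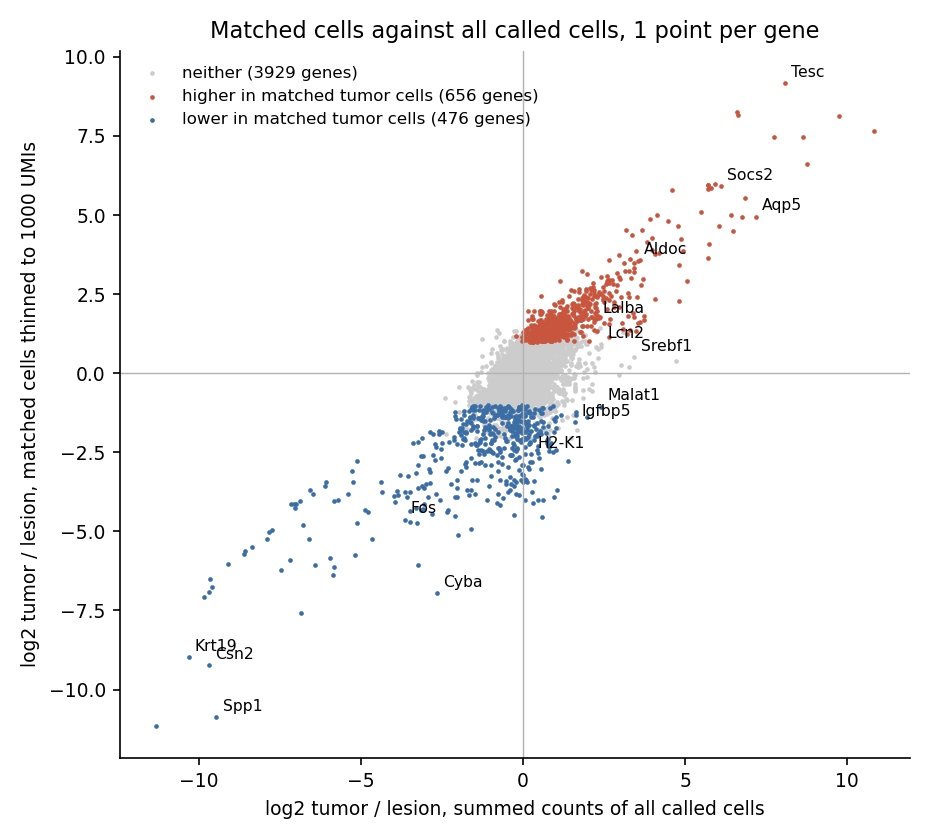
Each point is 1 of 5061 genes, with the log2 ratio of tumor over lesion from the summed counts of all called cells on the x axis and from matched thinned cells on the y axis; red genes are called higher and blue genes lower in matched cells. Most red genes lie right of 0 on the x axis, while 105 blue genes lie right of 0 as well, among them H2-K1, Igfbp5 and Malat1.

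The same split was seen gene by gene. Epcam (chr17:87635979-87651129), the epithelial adhesion protein, was found in 54.9% of matched lesion and 20.2% of matched tumor cells (15.4% to 25.9%). It was found in 73.1% (59.0% to 84.4%) of the 52 tumor cells with 1% to 20% mitochondrial RNA and in all 18 deep ones. B2m, the light chain of class I molecules, had 86.6% and 51.7% in matched cells and 67.3% in the 52. Both genes were chosen after their values were seen. H2-K1 was found in 14.5% of matched and 67.3% of those tumor cells. Csn2, Fos and Socs2 did not split in this way: in the 52 cells they were found in 3.85%, 3.85% and 38.5%. Aldoc was found in 78.8% of them. The lower shares of Epcam, Cd9, H2-K1 and Igfbp5 were thus measured in tumor cells under 1% mitochondrial RNA and not in those above it, and the part of the mitochondrial limit in them was not tested.

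**Figure D5:**
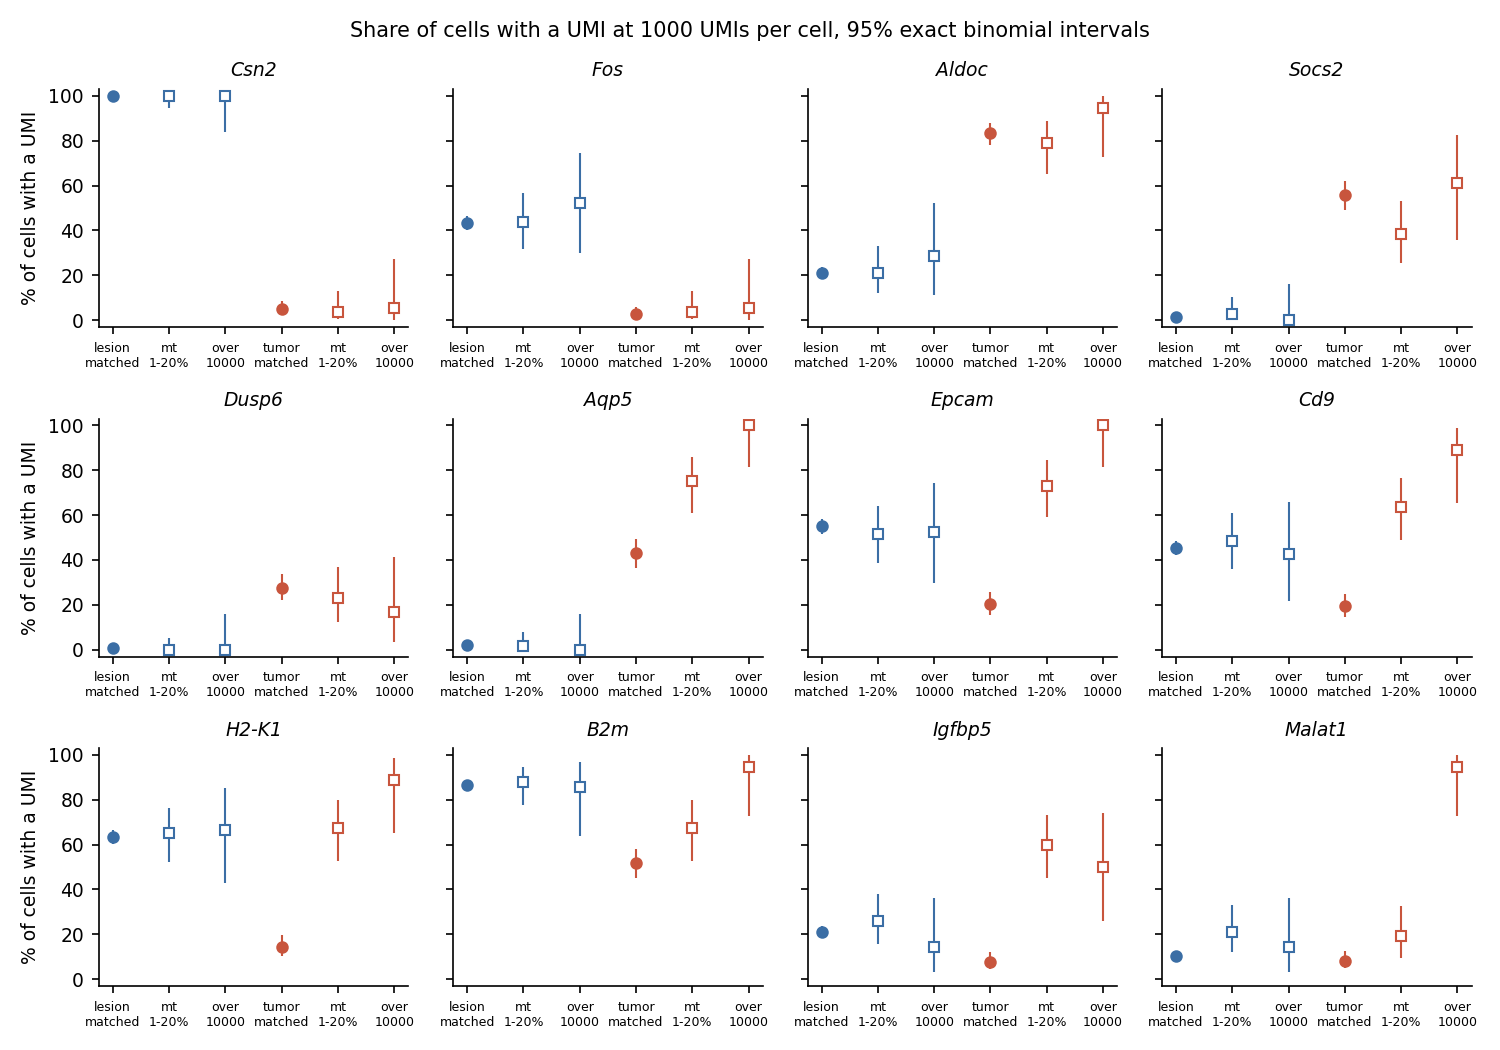
Points give the percent of cells with a UMI at 1000 UMIs per cell for 12 genes, with exact 95% binomial intervals: filled circles are matched cells, open squares cells with 1% to 20% mitochondrial RNA and cells above 10000 UMIs, blue for the lesion and red for the tumor. Csn2, Fos, Aldoc and Socs2 keep their side in all tumor sets, whereas Epcam is at 20.2% in matched tumor cells and at 73.1% and 100% in the other 2 sets.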

How the data were processed

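Expression was measured in sorted cells by droplet single-cell RNA sequencing, and 2 of the 4 libraries were compared, 1 per side. The files deposited by the authors hold whole-number UMI counts per gene and barcode, with all 737280 barcodes of the kit listed. Per the submitters' processing notes, reads were placed on mm10. Names of the aligner, the counting software and the gene annotation are not given in the sources used here. Called cells had at least 910 UMIs in the lesion and 534 in the tumor (limits set from the deepest barcodes of each library), at least 250 genes and at most 20% mitochondrial UMIs. Matched cells were thinned to 1000 UMIs without replacement (seed 1; numpy 2.4.6, scipy 1.17.1). Log2 ratios of means per cell used 0.5 added to each sum, with exact conditional binomial intervals at 95%. Shares carry Clopper-Pearson intervals, and a gene at 0 in 1 library is bounded by a floor of 3 counts. UMIs of a cell are not independent draws of a condition, so intervals and floors cover counting error only. The comparison was tested on simulated data in which all cells of a library shared a single profile, without variation between cells beyond counting. That test therefore does not check the intervals for genes that vary from cell to cell.

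Named genes were ranked by the end of the interval closer to a ratio of 1, among genes in at least 5% of cells of either library: the top 15 in each direction, up to 3 per direction of each of 55 lists, 8 with the widest gap to the sums of all called cells (at 50 CPM or more), Erbb2 and Ptprc. Of 1365 list symbols 1362 matched. The members, the lists and the rule were chosen with earlier results of these data known. Members of a list named beyond the rule were chosen after their values were seen. Alternatives were 2 further seeds, no thinning, other depth, gene and mitochondrial limits, milk genes removed, Scrublet (scanpy 1.11.5) doublets removed, each gene's top cell removed, other minimums, and edgeR 4.0.16 TMM factors; cells outside the window were added after seeing the data.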

Additional observations from a re-analysis of the deposited data

How the results depend on the processing

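The higher calls numbered 1098 without thinning and 362 with a minimum of 50 thinned UMIs, and the lower calls 956 without thinning and 1397 with TMM scaling, against 656 and 476; more or fewer genes were measured in these settings (8222 without thinning, 2721 at the higher minimum). Other settings left both counts within 1.5 times. Of 129 named and called genes, 128 or 129 kept their direction in each setting other than the removal of milk genes, which left 122 of them with a UMI and turned none. Between 108 and 129 kept their call. Directions turned for Igfbp5 (0.42 with a mitochondrial share up to 20%), for Yy1 (-0.40 with another seed), for the medians of Kruppel-like and SP factors (0.073 without thinning), of C/EBP, STAT, IRF and NF-kB factors (0.30 at a minimum of 50), of SMAD, TCF, TEAD and mesenchymal transition factors (-0.083 without thinning, -0.38 with TMM) and of matrix proteins (0.22 with an upper limit of 5000 UMIs); the cause was not tested. The medians of all measured genes, of the transcription factor class and of the metabolic class also turned negative under TMM scaling, as given above. The cause of this was not tested either. At 1000 UMIs per cell a count of 0 in 242 tumor cells allows up to 1.24% of cells with a captured UMI and sets no limit on cells that express the gene. No paired analysis was possible because each group holds 1 library.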

Other observations

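Free RNA was read from barcodes with 1 to 50 UMIs, and the 3 genes given here were chosen after their values were seen. The receptor class summed to 4081 CPM of free RNA in the lesion and 4968 in the tumor, and luminal epithelial markers to 6212 and 3454. Epcam stood at 834 CPM of such barcodes in the lesion and 926 in the tumor, while matched cells averaged 0.877 and 0.322 UMIs per 1000. H2-K1 stood at 1238 and 1155 CPM in free RNA, and at 1.23 and 0.207 UMIs per 1000 in matched cells. Trf, transferrin, was at 5850 and 13689 CPM in free RNA, and at 5.86 and 5.73 per 1000 in matched cells. Mitochondrially encoded RNA made up 27905 CPM of free RNA in the lesion and 180549 in the tumor.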
